A study of Homo sapiens with 30 samples.

Results

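The transcriptome of Ramos cells treated with 500 nM Omomyc for 6 h was compared with that of untreated Ramos cells, with 3 libraries in each group. The comparison used 6 of the 30 libraries in the series and the 13614 of 57992 genes whose mean over these 6 libraries was at least 0.5 RPKM (a read count divided by the length of the gene and by the size of the library). Ramos is a human B cell line from a Burkitt lymphoma, a tumor of germinal center B cells, and the labels give its MYC status as a MYC translocation. The labels name 1 untreated group without a time point, 500 nM and 2.5 μM Omomyc at 6 h, and the same doses in libraries titled 24 h, for which a tag reads 4 h. The study also holds 15 libraries of another cell line, which were not used here. Total RNA was depleted of rRNA and sequenced with a strand-specific kit. No vehicle group and no untreated group of 6 h is named, so an effect of Omomyc and one of handling or of time in culture cannot be told apart in this comparison. The paper's methods describe RNA-Seq for the other line alone, so how Omomyc was given to the Ramos cells of these libraries, including any delivery reagent, is not given in the sources used here. Nothing in the labels says that the 3 libraries of a group came from separate cultures, and the p-values measure the spread between these libraries, which may be technical.

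Omomyc is a miniprotein made from the basic helix-loop-helix leucine zipper of MYC with altered residues in the zipper. MYC is a transcription factor that binds DNA as a dimer with MAX, with a preference for the E box, CACGTG, and its known targets include genes of ribosome biogenesis, nucleotide synthesis and the cell cycle. MAX also pairs with the MXD proteins and MNT, which repress. Omomyc can pair with MYC, with MAX and with itself and can occupy E boxes. In Burkitt lymphoma, MYC is joined to an immunoglobulin locus, and the cells keep the program of a germinal center B cell, with a surface immunoglobulin receptor, BCL6 and TCF3.

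In the Ramos cells treated with 500 nM Omomyc for 6 h, 16 of 28 interferon response genes, 11 of 16 MHC class II genes and 14 of 30 NF-κB targets fell, and so did the cyclin B genes CCNB1 and CCNB2. Rises were found in 14 of 23 genes of the G1 phase, 18 of 41 DNA replication genes, 17 of 23 sterol genes and 11 of 22 genes of endoplasmic reticulum (ER) chaperones and the unfolded protein response. FCRL5, CCL3 and EGR2 were among the largest falls. MYC mRNA was not past the threshold. Of the 13614 genes tested, 3209 (23.6%) had a Benjamini-Hochberg adjusted p under 0.05 in a limma model of log2(RPKM + 0.5), and all fold changes below are on this log2 scale, which understates the change of low genes. Treated cells were higher for 1884 genes (13.8%) and lower for 1325 (9.73%). Most of these differences were small, with a median absolute log2 fold change of 0.38 over the 3209 genes, and 111 genes differed by 1 or more on the log2 scale, 23 of them higher and 88 lower. For 5634 genes (41.4%) all libraries of one group lay above all of the other. The number of genes past the threshold was 1853 without replicate 2 of the treated libraries and 1862 without replicate 3. When each library was rescaled to an equal sum of RPKM, 79.8% of the genes past the threshold were higher in treated cells, against 58.7% on the deposited scale, and the median over all genes moved from 0.02 to 0.11.

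**Figure D1:**
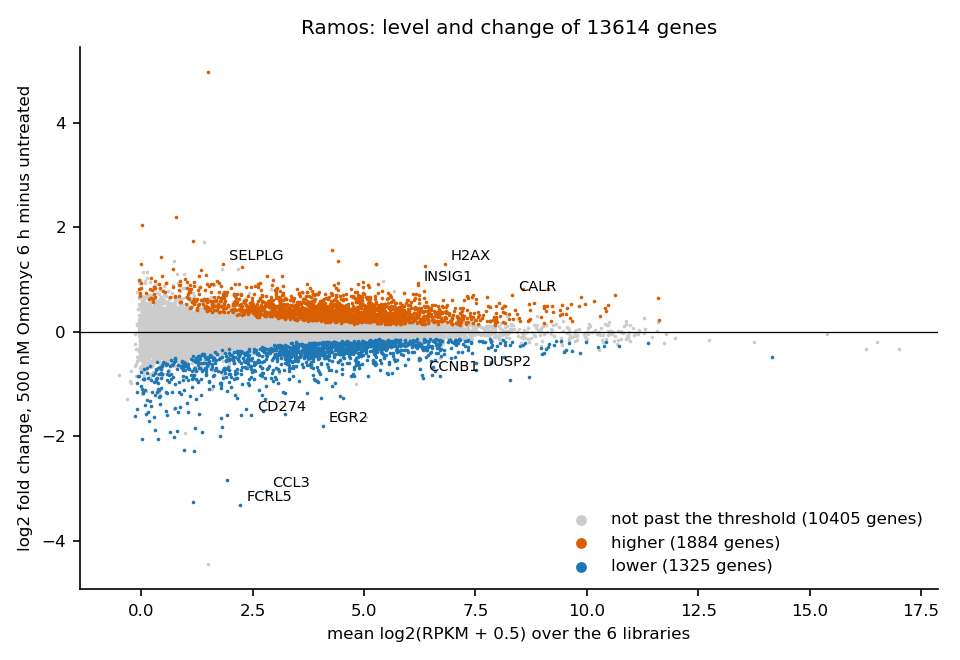
Mean level over the 6 libraries, as log2(RPKM + 0.5) (x axis), against the log2 fold change of 500 nM Omomyc at 6 h over untreated Ramos cells (y axis), with 1 point per gene for 13614 genes. The 1884 genes higher and 1325 genes lower in treated cells with a limma adjusted p under 0.05 are colored, and FCRL5 and CCL3 lie further from 0 than any labeled rise.

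Library sums of RPKM ranged from 829686 to 973736. Read numbers are not given in the sources used here, which leaves the depth unknown. RN7SK, the small nuclear RNA that holds the elongation factor P-TEFb, took from 15.1% to 16.8% of the sum in untreated libraries and from 12.7% to 14.1% in treated libraries. The correlation of log2 values between replicates was from 0.9845 to 0.9888 in untreated cells and from 0.9907 to 0.9936 in treated cells. Untreated replicates 1 and 2 had identical values above 0 for 83 genes, against 3 and 0 for the other untreated pairs. The treated pairs had 0, 1 and 4 such genes, and the reason was not tested. All 8 B cell markers were expressed, with a summed level of 1530 to 1680 RPKM per library. The 7 erythroid and platelet markers were at 0 in all 6 libraries, the 9 myeloid markers summed to at most 0.835 RPKM and the 10 epithelial markers to at most 0.45 RPKM. The 10 T cell and NK cell markers summed to 7.62 to 7.71 RPKM in untreated and 4.28 to 4.53 RPKM in treated libraries, and of these only CD28 passed the filter (log2 fold change -0.65). The part of these cell types in the differences was not tested.

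The E box letters were about as frequent before genes that rose as before genes that fell. Promoter windows of RefSeq on GRCh38.p14, from 250 bases before to 50 bases after the annotated start, were matched for 9272 of the 13614 genes. CACGTG, which reads the same on both strands, was in 10.5% of the 9272 windows. It was in 157 of 1457 windows (10.8%, exact 95% binomial interval 9.23% to 12.5%) of genes higher in treated cells and in 97 of 972 windows (9.98%, 8.17% to 12%) of genes lower in treated cells. Of the 6843 windows of genes not past the threshold, 723 (10.6%) held it. The E box is shown in the 250 bases before the start of DUSP2, a MAP kinase phosphatase whose level fell, CCNB1, the mitotic cyclin B1, whose level fell, INSIG1, a sterol-sensing ER protein whose level rose, and MEX3D, an RNA-binding protein among the largest rises. Each is written 5′ to 3′ on the strand of its gene, with the E box in capitals. MEX3D holds 2 of them.
DUSP2, chr2:96145441-96145690, minus strand: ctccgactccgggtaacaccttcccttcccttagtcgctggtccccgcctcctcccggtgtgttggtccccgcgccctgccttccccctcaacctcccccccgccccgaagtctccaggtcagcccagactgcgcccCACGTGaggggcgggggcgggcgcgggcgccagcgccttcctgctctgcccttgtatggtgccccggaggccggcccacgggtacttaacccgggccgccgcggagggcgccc
CCNB1, chr5:69166900-69167149, plus strand: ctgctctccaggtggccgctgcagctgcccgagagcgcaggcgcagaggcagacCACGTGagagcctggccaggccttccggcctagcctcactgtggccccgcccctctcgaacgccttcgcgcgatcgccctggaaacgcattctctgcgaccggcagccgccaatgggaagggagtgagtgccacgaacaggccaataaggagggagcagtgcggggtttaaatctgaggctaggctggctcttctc
INSIG1, chr7:155297628-155297877, plus strand: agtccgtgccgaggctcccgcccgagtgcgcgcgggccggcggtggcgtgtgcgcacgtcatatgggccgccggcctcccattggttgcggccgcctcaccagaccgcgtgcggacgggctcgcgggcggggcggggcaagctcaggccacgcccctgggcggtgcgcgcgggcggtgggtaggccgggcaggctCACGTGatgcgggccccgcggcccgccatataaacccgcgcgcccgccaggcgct
MEX3D, chr19:1568326-1568575, minus strand: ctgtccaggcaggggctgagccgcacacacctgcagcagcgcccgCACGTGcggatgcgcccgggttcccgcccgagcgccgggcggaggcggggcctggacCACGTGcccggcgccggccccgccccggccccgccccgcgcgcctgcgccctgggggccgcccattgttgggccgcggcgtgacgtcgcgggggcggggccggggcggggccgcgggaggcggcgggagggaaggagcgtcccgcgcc

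Members of the MYC network changed little in mRNA. Of 13 listed, 11 passed the filter, 2 rose (18.2%) and 0 fell, beside 13.8% and 9.73% of all genes. The median log2 fold change was 0.07 beside 0.02 over all genes. MYC was at 131, 136 and 153 RPKM in untreated and 136, 146 and 149 RPKM in treated libraries, groups that overlap (log2 fold change 0.039, limma adjusted p = 0.703). MAX was at 24, 24.6 and 22.9 RPKM in untreated and 24.8, 24.2 and 26 RPKM in treated libraries, again overlapping (log2 fold change 0.067, limma adjusted p = 0.43). The 2 members that rose were both MXD genes, whose proteins repress as partners of MAX. MXD1 and MXI1 did not follow, with log2 fold changes of -0.20 and -0.21. MXD3 was at 7.83, 11.3 and 10.8 RPKM in untreated and 16.5, 18.6 and 19.2 RPKM in treated libraries, so that every treated library was above every untreated one (log2 fold change 0.84, limma adjusted p = 0.00198). MXD4 was at 11, 12.2 and 12.7 RPKM in untreated and 14.1, 14.2 and 14.8 RPKM in treated libraries (log2 fold change 0.26, limma adjusted p = 0.0301). The call of MXD3 was kept under every alternative run. That of MXD4 was lost in 9 of 18 alternatives, among them those without any 1 of the 3 treated libraries or without untreated replicate 1, and with the GC trend or the length trend removed. MNT, MXD1, MXI1, MGA, MLX, MLXIP and MYCL had log2 fold changes from -0.21 to 0.28 and were not past the threshold.

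Among 57 genes known to be activated by MYC, 9 rose (15.8%) and 4 fell (7.02%), beside 13.8% and 9.73% of all genes, and the median log2 fold change was 0.02. The balance depended on the scaling, with 11 higher and 1 lower under an equal sum, 6 and 6 under median-ratio scaling, 6 and 8 under quantile normalization, 5 and 7 with the GC trend removed and 7 and 8 with the length trend removed. The median was below 0, at -0.0103 to -0.056, with median-ratio scaling, quantile normalization or a GC or length trend removed. The rises numbered 5 without any 1 of the 3 treated libraries or without untreated replicate 1, and the falls numbered 2 without replicate 2 or replicate 3 of the treated libraries. The risers included the folate carrier SLC19A1 (log2 fold change 0.41, limma adjusted p = 0.0251), the equilibrative nucleoside transporter SLC29A2 (log2 fold change 0.42, limma adjusted p = 0.00573) and the helicase subunit MCM4 (log2 fold change 0.39, limma adjusted p = 0.000606). With the GC trend removed, SLC19A1 and SLC29A2 were no longer past the threshold, at 0.14 and 0.23, and SLC19A1 was not past it without any 1 of the treated libraries or without untreated replicate 1 or 2. DUSP2 fell from 257, 228 and 227 RPKM in untreated to 134, 140.2 and 151 RPKM in treated libraries, which did not overlap (log2 fold change -0.74, limma adjusted p = 0.00018). Of 83 ribosome biogenesis factors, 8 rose (9.64%) and 15 fell (18.1%), with a median log2 fold change of -0.044. WDR12, a subunit of the complex that processes the large ribosomal subunit, was at 37.6, 43.9 and 29.3 RPKM in untreated and 24.1, 22.1 and 23.9 RPKM in treated libraries (log2 fold change -0.63, limma adjusted p = 0.00689). RRP9, which binds the U3 small nucleolar RNA, rose (log2 fold change 0.36, limma adjusted p = 0.0077) but was not past the threshold with the GC trend removed, at 0.17. Also higher were NHP2 (log2 fold change 0.30, limma adjusted p = 0.00384), a core protein of H/ACA RNA particles, and FBL (log2 fold change 0.29, limma adjusted p = 0.0101), the rRNA methyltransferase fibrillarin. Of 79 cytosolic ribosomal protein genes, 0 rose and 5 fell (6.33%, beside 9.73% of all genes), among them RPL12 (log2 fold change -0.29, limma adjusted p = 0.00561). The number that fell went to 1 of 83 and 0 of 79 for these last 2 lists when libraries were rescaled to an equal sum, which also turned both medians above 0. Without replicate 2 and without replicate 3 of the treated libraries, 8 and 6 biogenesis factors fell and 4 and 5 rose. From 1 to 3 ribosomal protein genes fell without treated replicates 1, 2 or 3 or untreated replicates 1 or 2, whereas 17 fell with quantile normalization, 15 in a fit over all 5 Ramos groups and 14 with the length trend removed.

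Genes that the study assayed by PCR or at their promoters in the other line were pooled in a single list. Since the study chose them, their directions are not independent evidence. The paper reports lower mRNA of ASNS, SAT1, ID3, EGR2 and CD274 by PCR in treated cells of that line. The dose there was higher and the treatment longer than in the main comparison here, and a delivery reagent was used. ASNS, SAT1, ID3 and EGR2 had first been found lower in the paper's RNA-Seq of that line. For the other listed genes the assay was of binding at their promoters, not of RNA. Of 15 listed, 14 were tested, 3 rose and 3 fell. The falls were all among the genes assayed by PCR. In that set ID3 rose (log2 fold change 0.18, limma adjusted p = 0.0196). The other rises, PUS1 and BOP1, were of genes assayed at their promoters. EGR2 (ENSG00000122877), an immediate early zinc finger factor, fell from 32.7, 30.1 and 30.5 to 9.09, 8.05 and 8.42 RPKM, the smallest adjusted p of the named genes together with FCRL5 (log2 fold change -1.81, limma adjusted p = 4.32e-06). CD274, which encodes the immune checkpoint ligand PD-L1, was at 10.1, 8.39 and 8.95 RPKM in untreated and 2.82, 3.01 and 2.24 RPKM in treated libraries (log2 fold change -1.60, limma adjusted p = 0.000124). SAT1, the polyamine acetyltransferase, was at 51.1, 53.8 and 47.9 RPKM untreated and 36.4, 37.9 and 35.2 RPKM treated (log2 fold change -0.48, limma adjusted p = 0.000651). The 3 treated libraries were thus below the 3 untreated ones for each of these genes. For EGR2 and CD274 the rule for choosing the largest falls required this. PUS1, a pseudouridine synthase, rose (log2 fold change 0.39, limma adjusted p = 0.00575). BOP1, a ribosome biogenesis factor and partner of WDR12, was higher by 0.24 (limma adjusted p = 0.00997) but had a log2 fold change of -0.0469 when the trend on GC content was removed. ASNS (asparagine synthetase), NCL (nucleolin) and NPM1 (nucleophosmin) had log2 fold changes of -0.15, 0.0094 and -0.13 and were not past the threshold. ASNS was past it, and lower, in 6 of 18 alternatives, among them median-ratio scaling and quantile normalization, and NPM1 in 2.

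The ID genes, whose proteins bind E proteins and keep them from DNA, were slightly higher. ID1, ID2 and ID3 had log2 fold changes of 0.24, 0.34 and 0.18 with limma adjusted p = 0.035, 0.00178 and 0.0196. The calls of ID1 and ID3 were lost with the GC trend removed and without treated replicate 2 or 3 or untreated replicate 1 or 2, and that of ID1 also without untreated replicate 3. ID2 was at 48.4, 48.4 and 49 RPKM in untreated and 58.3, 62.8 and 64 RPKM in treated libraries. TCF3, the E protein that drives germinal center genes, rose from 110.1, 105 and 121 to 141, 155 and 164 RPKM (log2 fold change 0.45, limma adjusted p = 0.00236). Its relative TCF4 fell from 32.9, 34.7 and 31.7 to 23.9, 22.3 and 23.1 RPKM (log2 fold change -0.51, limma adjusted p = 0.000476). The treated and untreated libraries were apart for all 3 genes. Of 7 HLH genes listed, 6 were tested, 4 rose and 1 fell. The rises numbered 2 after quantile normalization, with the GC trend removed, and without replicate 2 or 3 of the treated or replicate 1 or 2 of the untreated libraries.

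On the log2(RPKM + 0.5) scale the largest fall among the named genes was that of FCRL5, a rank over CCL1 that depended on the settings. The lowest value under the alternatives was -4.48 for CCL1 and -3.74 for FCRL5. FCRL5 (ENSG00000143297, chromosome 1, 157513377 to 157552520 on GRCh38), an Fc receptor-like protein of B cells, went from 15.6, 15.2 and 12.3 RPKM to 1.11, 1 and 0.84 RPKM (log2 fold change -3.32, limma adjusted p = 4.32e-06). Its mean was 14.4 ± 1.8 RPKM in untreated and 0.985 ± 0.138 RPKM in treated cells (SD, n = 3). The chemokine genes CCL1, CCL3 and CCL4 followed it in size, the last pair coding for proteins that attract T cells and monocytes. CCL3 was at 20.9, 19.9 and 18.1 RPKM in untreated and 2.21, 1.35 and 2.33 RPKM in treated libraries (log2 fold change -3.06, limma adjusted p = 2.95e-05). CCL4 was at 11.2, 11.3 and 7.08 RPKM untreated and 1.09, 0.616 and 1.08 RPKM treated (log2 fold change -2.85, limma adjusted p = 9.92e-05). CCL1, another chemokine, was at 8.53, 4.48 and 6.92 RPKM untreated and 0.207, 0.468 and 0.0439 RPKM treated (log2 fold change -3.27, limma adjusted p = 0.00015). The 4 genes showed no overlap between treated and untreated libraries, which the rule for choosing the largest falls required. CCL3L3 and CCL4L2, near-identical copies that can share reads with CCL3 and CCL4, also fell (log2 fold changes -1.91 and -1.48), and the split between the copies is uncertain. The 15 largest falls also held ITGB2 (the common chain of leukocyte integrins), STAT5A, the repressor ZEB2, FCMR (an IgM receptor), the ERK phosphatase DUSP5, EBI3 (a cytokine subunit), EGR2, SPOCK2, CD274 and RASGEF1B, with log2 fold changes from -2.29 to -1.59.

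Apart from 3 loci of near-identical or variable genes, the largest rises were smaller than the largest falls. H2AX, a histone variant that is phosphorylated at DNA breaks, was at 78.7, 67.4 and 67.6 RPKM in untreated and 138, 192 and 203 RPKM in treated libraries (log2 fold change 1.30, limma adjusted p = 0.000309). TUBB3, a beta tubulin, was at 49.8, 49.3 and 60.9 RPKM untreated and 127, 129 and 128 RPKM treated (log2 fold change 1.26, limma adjusted p = 6.5e-05). SELPLG, the ligand of P-selectin, was at 1.65, 1.57 and 2.12 RPKM untreated and 4.75, 5.27 and 5.26 RPKM treated (log2 fold change 1.30, limma adjusted p = 0.000288). The groups were apart in all 3, which the rule for choosing the largest rises required. The others of the 15 largest rises were HES6, CSDC2, CIBAR2, FAM98C, ZNF219, MEX3D, E2F7, CFD and SAMD1, with log2 fold changes from 0.96 to 1.24, and IGLV2-8, GTF2IRD2B and SLC7A5P2. Without treated replicate 3, CFD, IGLV2-8 and GTF2IRD2B were not past the threshold, nor were the last pair without treated replicate 2, nor IGLV2-8 without untreated replicate 1 or 3. GTF2IRD2B, which has a near-identical copy that can share its reads, was at 23.3, 6.95 and 13.1 RPKM untreated and 26.5, 34.4 and 42.1 RPKM treated. SLC7A5P2, a pseudogene with the sequence of the amino acid transporter SLC7A5, was listed at 0 in untreated replicates 1 and 3 and at 2.16e-05 RPKM in replicate 2, and at 10.1, 15.7 and 22.4 RPKM in the treated libraries. Its reads can be assigned to SLC7A5, which was well expressed in every library, so its value is uncertain and no fold is given.

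**Figure D2:**
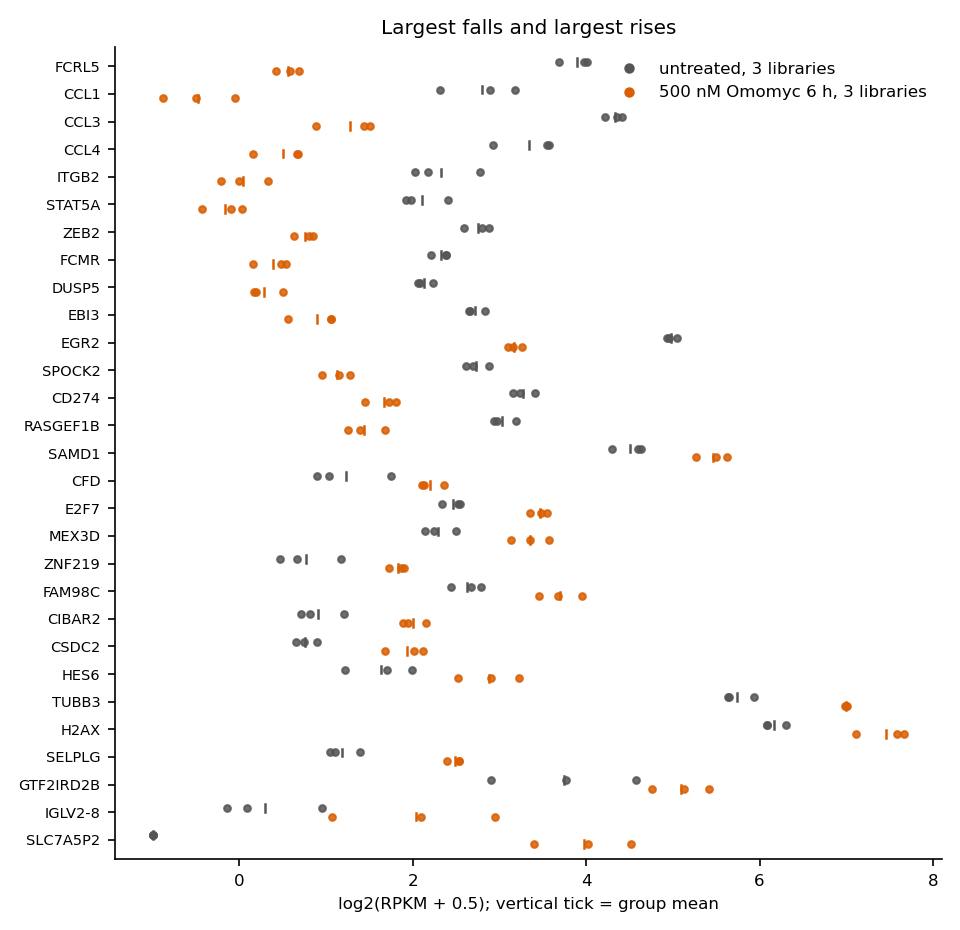
Log2(RPKM + 0.5) (x axis) of the genes with the largest falls and the largest rises (y axis) in each of 3 untreated libraries (gray) and 3 libraries with 500 nM Omomyc at 6 h (orange), with a vertical tick at the group mean. The groups do not overlap for any gene shown, which the rule for choosing them required, and the untreated values of SLC7A5P2 lie at the floor of the scale.

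Targets and regulators of NF-κB, the transcription factor family downstream of the B cell receptor and CD40, fell more often than they rose. In bulk RNA, fewer cells of a type and less RNA per cell cannot be told apart. Of 35 listed, 30 were tested, of which 14 fell (46.7%) and 2 rose (6.67%), beside 9.73% and 13.8% of all genes. The median log2 fold change was -0.22. CCL22, a chemokine for T cells, was at 2.33, 1.55 and 2.64 RPKM in untreated and 0.181, 0.129 and 0.0976 RPKM in treated libraries (log2 fold change -2.05, limma adjusted p = 0.000323). TNFAIP3, which encodes the feedback inhibitor A20, was at 7.34, 7.04 and 6.18 RPKM untreated and 3.1, 3.58 and 3.51 RPKM treated (log2 fold change -0.91, limma adjusted p = 0.000555). BCL2A1, an inhibitor of apoptosis, was at 52.7, 42.4 and 41.3 RPKM untreated and 26.9, 24.8 and 23.3 RPKM treated (log2 fold change -0.85, limma adjusted p = 0.00048). Treated libraries were lower than all untreated ones for each of them. CFLAR, CD83, TRAF1, REL, BIRC3, NFKB1, LTA and CD40 fell as well, with log2 fold changes from -0.98 to -0.24. The exceptions were NFKBIA, the inhibitor IκBα (log2 fold change 0.35, limma adjusted p = 0.00767), and the subunit gene RELB (log2 fold change 0.52, limma adjusted p = 0.00108), which rose. Between 12 and 17 members fell under the other scalings, filters and models, with no reversal of the median.

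Among 23 immediate early genes tested, 6 fell (26.1%) and 2 rose (8.7%), beside 9.73% and 13.8% of all genes. The median of -0.0059 was above 0 with libraries rescaled to an equal sum or a mean of at least 2 RPKM. It was also above 0 without treated replicate 1 or 2 or without untreated replicate 1. DUSP5 fell from 4.21, 3.68 and 3.73 to 0.639, 0.62 and 0.92 RPKM (log2 fold change -1.84, limma adjusted p = 0.00015). BTG2 and BTG1, which restrain proliferation, fell, with log2 fold changes of -0.54 and -0.54, and the orphan receptor gene NR4A3 with -0.84. SRF and JUND were higher (0.28 and 0.54), and neither call was left with the GC trend removed, without the filter, without treated replicate 2 or 3 or without untreated replicate 2. The falls thus lay in EGR2, NR4A3 and the DUSP and BTG genes, and 7 of the 30 listed genes were below the filter.

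Interferon response genes were mostly lower. Of 31 listed, 28 were tested, of which 16 fell (57.1%) and 0 rose, with a median log2 fold change of -0.59 beside 0.02 over all genes. They code for factors against viruses and for the interferon signaling chain. MX1, a GTPase that blocks viruses, was at 21.9, 20.3 and 15.2 RPKM in untreated and 10.3, 10.5 and 10.3 RPKM in treated libraries (log2 fold change -0.84, limma adjusted p = 0.00152). OAS2, a synthetase that activates RNase L, was at 22.4, 22 and 18.6 RPKM untreated and 12, 10.9 and 12.2 RPKM treated (log2 fold change -0.81, limma adjusted p = 0.000353). In both genes replicate 3 was the lowest untreated library and still above every treated one. STAT2 and IRF9, which carry the signal of type I interferon to the nucleus, fell, with log2 fold changes of -0.27 and -0.44, and IFIT2, IFIT3, IFI6, PARP9 and RIGI (the RNA sensor RIG-I) fell, with values from -1.24 to -0.75. IFI6 was not past the threshold without treated replicate 1. From 10 to 19 members fell under the alternatives, the fewest without the filter on low values.

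The letters TTCNNTTTC, the core of the elements through which interferon-regulated factors bind, were searched on both strands after the falls had been seen. They were in 642 of 9272 windows (6.92%). Of windows of genes that fell, 95 of 972 held them (9.77%, exact 95% binomial interval 7.98% to 11.8%). Of those of genes that rose, 86 of 1457 did (5.90%, 4.75% to 7.24%). The letters are mostly T and A, and transcripts of genes that fell had a lower median GC content (43.9%, against 56.4% for rises). The part of base composition in this contrast was not tested. Among the interferon response genes the letters were in 13 of 21 windows (61.9%). They were less frequent among the members that fell, in 5 of 12 windows (41.7%). The 250 bases before IFI6 are shown for a member of that list that fell, and those before CD274 and CCL3 for genes outside it that fell, with matches on either strand in capitals.
CD274, chr9:5450292-5450541, plus strand: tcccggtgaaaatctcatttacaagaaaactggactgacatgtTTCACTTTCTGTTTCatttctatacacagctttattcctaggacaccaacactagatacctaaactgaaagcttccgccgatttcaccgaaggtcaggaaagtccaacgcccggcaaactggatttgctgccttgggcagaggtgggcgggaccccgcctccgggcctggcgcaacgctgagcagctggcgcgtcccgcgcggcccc
IFI6, chr1:27672193-27672442, minus strand: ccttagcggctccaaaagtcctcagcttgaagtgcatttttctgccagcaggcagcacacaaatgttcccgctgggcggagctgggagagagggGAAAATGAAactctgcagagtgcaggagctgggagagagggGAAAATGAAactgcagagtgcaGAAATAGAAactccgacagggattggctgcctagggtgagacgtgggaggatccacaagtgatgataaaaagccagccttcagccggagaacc
CCL3, chr17:36090144-36090393, minus strand: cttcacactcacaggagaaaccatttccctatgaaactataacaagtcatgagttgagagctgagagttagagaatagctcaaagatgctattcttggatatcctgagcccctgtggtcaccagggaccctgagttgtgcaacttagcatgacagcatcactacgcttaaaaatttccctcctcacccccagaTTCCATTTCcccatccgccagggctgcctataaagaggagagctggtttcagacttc
CD274 holds 2 overlapping matches, IFI6 holds 3 and CCL3 holds 1.

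MHC class II genes, which present peptides to CD4+ T cells, were mostly lower. Of 16 tested, 11 fell (68.8%) and 0 rose, with a median log2 fold change of -0.31. HLA-DRA was at 931, 934 and 894 RPKM in untreated and 748, 712 and 681 RPKM in treated libraries (log2 fold change -0.37, limma adjusted p = 0.00155). HLA-DQA1 was at 31.6, 29.5 and 28.4 RPKM untreated and 16.9, 17 and 16.3 RPKM treated (log2 fold change -0.82, limma adjusted p = 0.000102). CIITA, the coactivator that switches these genes on, was at 50.2, 44.5 and 49.6 RPKM untreated and 33.9, 37.1 and 37 RPKM treated (log2 fold change -0.41, limma adjusted p = 0.00223). None of the treated libraries reached an untreated one for these genes. HLA-DRB1 and HLA-DRB5, alike in sequence, fell, with log2 fold changes of -0.71 and -0.56, and how reads were split between them is uncertain. The invariant chain CD74 and the peptide exchange factor HLA-DMA fell, with log2 fold changes of -0.28 and -0.31. From 6 to 11 members fell under the alternatives, the fewest with libraries rescaled to an equal sum. MHC class I genes did not follow: of 13 tested, 4 rose and 2 fell, with HLA-C at 98.8, 99.6 and 94.4 RPKM in untreated and 138, 136 and 145 RPKM in treated libraries (log2 fold change 0.51, limma adjusted p = 0.000201). HLA-B and the peptide loading factor TAPBP rose (0.23 and 0.41), and HLA-E fell (-0.23), a call lost without treated replicate 2 and with an equal sum. With the GC trend removed, 2 class I genes rose and 3 fell.

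Genes of B cell identity moved both ways. Of 40 listed, 36 were tested, of which 10 rose (27.8%) and 12 fell (33.3%). VPREB3, a surrogate light chain partner, was at 13.4, 16.9 and 15.1 RPKM in untreated and 30.3, 26.6 and 30.7 RPKM in treated libraries (log2 fold change 0.93, limma adjusted p = 0.000263). CD79B, a signaling chain of the B cell receptor, was at 348, 374 and 405 RPKM untreated and 541, 564 and 531 RPKM treated (log2 fold change 0.54, limma adjusted p = 0.00049). BCL6, the repressor that maintains the germinal center state, was at 54.5, 55.1 and 59.9 RPKM untreated and 78, 75.3 and 79.2 RPKM treated (log2 fold change 0.45, limma adjusted p = 0.000532). These were higher in every treated library, as was JCHAIN, the joining chain of secreted IgM (log2 fold change 0.71, limma adjusted p = 0.000201). MS4A1, which encodes CD20, fell from 291, 292 and 265 to 202, 181 and 184 RPKM (log2 fold change -0.58, limma adjusted p = 0.000323). EBF1, an early B cell factor, was at 10.9, 10.6 and 12.6 RPKM untreated and 6.96, 7.84 and 7.86 RPKM treated (log2 fold change -0.56, limma adjusted p = 0.003). CD24 fell, with a log2 fold change of -1.08, and the kinase BTK and the phospholipase PLCG2 with -0.28 and -0.30. B cell markers as such, 8 in number, were split into 3 that rose and 3 that fell. When libraries were rescaled to an equal sum, 3 of the 36 genes fell in place of 12.

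Receptors and chemokines that place B cells in tissue were called often in both directions, with 12 of 23 tested lower (52.2%) and 7 higher (30.4%), and 5 more listed genes below the filter. Besides the chemokines above, CCR7, the receptor that draws cells to the T zone, was at 1.38, 0.945 and 1.43 RPKM in untreated and 0.174, 0.162 and 0.132 RPKM in treated libraries (log2 fold change -1.41, limma adjusted p = 0.00158). GPR18 and CCR6 fell, with log2 fold changes of -0.97 and -0.74, and ITGA4, the integrin alpha 4 chain, with -0.73. S1PR2 and P2RY8, receptors that confine B cells to the germinal center, rose. S1PR2 was at 20.6, 22.9 and 23 RPKM untreated and 38.2, 34.5 and 37 RPKM treated (log2 fold change 0.71, limma adjusted p = 0.000201). P2RY8 was at 14, 14.1 and 15 RPKM untreated and 20.2, 18.7 and 19.3 RPKM treated (log2 fold change 0.42, limma adjusted p = 0.00181). The rises numbered 4 without any 1 of the 3 treated libraries or without untreated replicate 1 or 2. CXCR4, the receptor of the dark zone, was higher by 0.15 (limma adjusted p = 0.0405).

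Cyclins, kinases and inhibitors of the G1 phase were mostly higher. Of 26 listed, 23 were tested, of which 14 rose (60.9%) and 1 fell (4.35%), with a median log2 fold change of 0.33. CCNE2, a cyclin E that starts S phase with CDK2, was at 23.2, 23.5 and 22.9 RPKM in untreated and 37.8, 40 and 34.8 RPKM in treated libraries (log2 fold change 0.68, limma adjusted p = 0.000201). E2F1, an activator of S phase genes, was at 24.3, 22.9 and 27.5 RPKM untreated and 36.1, 38.4 and 39.1 RPKM treated (log2 fold change 0.60, limma adjusted p = 0.000659). CCND3, the cyclin D of germinal center B cells, was at 25.9, 27.5 and 29.1 RPKM untreated and 43.3, 40.5 and 43.7 RPKM treated (log2 fold change 0.62, limma adjusted p = 0.000262). The treated libraries lay above the untreated ones for all 3. The list holds inhibitors as well as activators, and the risers included the CDK4 inhibitors CDKN2C and CDKN2D (0.54 and 0.67) and the E2F repressors E2F7 and E2F8 (0.999 and 0.78). The gene that fell was CDKN1B, the CDK2 inhibitor p27, at 5.17, 4.39 and 4.91 RPKM in untreated and 2.75, 2.34 and 2.46 RPKM in treated libraries (log2 fold change -0.82, limma adjusted p = 0.00135). From 11 to 15 members rose under the alternatives, 12 with the GC trend removed.

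Of 41 DNA replication genes tested, 18 rose (43.9%), 2 fell (4.88%) and the rest were not past the threshold, with a median log2 fold change of 0.15. CDC45, part of the replicative helicase, was at 25.2, 25.7 and 27.4 RPKM in untreated and 39.1, 42.4 and 42.8 RPKM in treated libraries (log2 fold change 0.66, limma adjusted p = 0.000201). PCNA, the sliding clamp, was at 182, 179.7 and 193 RPKM untreated and 256, 260.1 and 259.6 RPKM treated (log2 fold change 0.48, limma adjusted p = 0.000201). CDT1, which licenses origins, was at 13.9, 15.7 and 16.4 RPKM untreated and 21.9, 23.6 and 24.4 RPKM treated (log2 fold change 0.59, limma adjusted p = 0.000911). In each the treated group lay wholly above the untreated group. LIG1, FEN1 and MCM7 rose by 0.53, 0.48 and 0.49, while RPA3 and ORC5 fell, with log2 fold changes of -0.62 and -0.28. With the GC trend removed, 16 rose and 2 fell. The enzymes of deoxynucleotide supply were among the nucleotide and polyamine genes that rose, 9 of 34 (26.5%), with 3 that fell (8.82%). TYMS, thymidylate synthase, was at 34.5, 30.4 and 30.5 RPKM in untreated and 54.6, 54.7 and 54.4 RPKM in treated libraries (log2 fold change 0.77, limma adjusted p = 0.000124). RRM2, the small subunit of ribonucleotide reductase, was at 135, 128 and 125 RPKM untreated and 193, 205 and 210.4 RPKM treated (log2 fold change 0.65, limma adjusted p = 0.000139). ODC1, the first enzyme of polyamine synthesis and a known MYC target, was at 579.6, 589 and 575 RPKM untreated and 822, 861 and 817 RPKM treated (log2 fold change 0.52, limma adjusted p = 0.0002). All 3 were higher in every treated library, and TK1, thymidine kinase, rose by 0.66. Of the falls in this list, 1 was left without replicate 2 or replicate 3 of the treated libraries.

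Mitosis genes split, with 13 of 40 lower (32.5%) and 9 higher (22.5%). CCNB1, cyclin B1, was at 112, 103 and 100 RPKM in untreated and 61.5, 60.3 and 53.9 RPKM in treated libraries (log2 fold change -0.83, limma adjusted p = 0.000124). CCNB2 was at 53.5, 48 and 50.8 RPKM untreated and 31.7, 35 and 33.2 RPKM treated (log2 fold change -0.60, limma adjusted p = 0.000291). AURKA, the spindle pole kinase, was at 34.1, 34.8 and 36.4 RPKM untreated and 25.9, 25.4 and 26.1 RPKM treated (log2 fold change -0.44, limma adjusted p = 0.000583). No treated library reached an untreated one in these genes, and HMMR, CENPE, BUB1, PTTG1, CENPF, PLK1, CDC20, KIF20A and KIF2C fell too. SPC24 and SPC25, kinetochore subunits, rose (0.70 and 0.71), as did the proliferation marker MKI67 (0.49), CDK1 (0.33) and CCNA2, the cyclin of S and G2 phase (0.16). With libraries rescaled to an equal sum, 8 fell, and the median of the list moved from -0.033 to above 0. Without replicate 2 of the treated libraries, 5 rose.

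Genes of p53 and of apoptosis showed no common direction. Of 20 p53 targets tested among 23 listed, 3 rose and 2 fell, with CDKN1A at 4.94, 4.54 and 4.78 RPKM in untreated and 6.34, 5.58 and 6.13 RPKM in treated libraries (log2 fold change 0.31, limma adjusted p = 0.0394). Leaving out any 1 of the 6 libraries reduced the rises to 0 or 1. Of 14 BCL2 family genes tested among 16 listed, 4 fell (28.6%) and 2 rose (14.3%). BCL2L11, which encodes the death activator BIM, was at 26.2, 21.7 and 24.9 RPKM untreated and 14.6, 14.2 and 14.5 RPKM treated (log2 fold change -0.73, limma adjusted p = 0.000334). BAK1, HRK and the protective BCL2A1 fell, with log2 fold changes of -0.41, -0.80 and -0.85, so that the falls held genes for and against cell death. BAD and BID rose by 0.41 and 0.33, and neither was called without replicate 3 of the treated libraries. The medians of the p53 and BCL2 lists were -0.078 and -0.071, and both were above 0 with libraries rescaled to an equal sum.

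Sterol synthesis and uptake genes, targets of the factor SREBF2, were mostly higher. Of 24 listed, 23 were tested, of which 17 rose (73.9%) and 0 fell, with a median log2 fold change of 0.31. INSIG1 was at 58.6, 49.7 and 52.6 RPKM in untreated and 103, 93 and 105 RPKM in treated libraries (log2 fold change 0.90, limma adjusted p = 0.000139). DHCR7, the last enzyme of cholesterol synthesis, was at 15.6, 13.4 and 18.1 RPKM untreated and 27.2, 22.3 and 23.2 RPKM treated (log2 fold change 0.61, limma adjusted p = 0.0047). The groups were apart for both. IDI1, SQLE and MVK rose by 0.47, 0.46 and 0.46, and SREBF2 itself by 0.30. Between 12 and 17 genes rose under the alternatives, 15 with the GC trend removed. The letters TCACNCCAC, a form of the sterol element, were in 1 of 18 windows of the list, and in 1.08% of all 9272.

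Many ER chaperone genes rose, and many ATF4 targets fell. Of 22 genes of ER chaperones and the unfolded protein response, 11 rose and 2 fell (9.09%), with a median log2 fold change of 0.23. CALR, the calcium-binding chaperone calreticulin, was at 253, 260.0 and 244 RPKM in untreated and 419, 396 and 409.6 RPKM in treated libraries (log2 fold change 0.69, limma adjusted p = 7.1e-05). CRELD2 was at 20.7, 21.3 and 20.4 RPKM untreated and 37.7, 39.9 and 40.6 RPKM treated (log2 fold change 0.90, limma adjusted p = 6.5e-05). HSPA5, the main ER chaperone BiP, was at 48.6, 47.8 and 44 RPKM untreated and 66.4, 66.4 and 63.4 RPKM treated (log2 fold change 0.48, limma adjusted p = 0.000448). All were higher in each treated library, and SDF2L1, MANF, PDIA3, PDIA4 and PDIA6, which fold or hold secretory proteins, rose by 0.45 to 0.91. The ER stress sensor EIF2AK3 fell, with a log2 fold change of -0.26. The number that rose was 12 with the GC trend removed. The ER stress element, CCAAT and CCACG with 9 bases between them, was searched on both strands and found in 15 of 9272 windows (0.162%). It was in 6 of the 21 windows of this list (28.6%) and in 4 of the 10 whose genes rose. It is in capitals in the 250 bases before CALR and CRELD2, where it reads on the opposite strand.
CALR, chr19:12938359-12938608, plus strand: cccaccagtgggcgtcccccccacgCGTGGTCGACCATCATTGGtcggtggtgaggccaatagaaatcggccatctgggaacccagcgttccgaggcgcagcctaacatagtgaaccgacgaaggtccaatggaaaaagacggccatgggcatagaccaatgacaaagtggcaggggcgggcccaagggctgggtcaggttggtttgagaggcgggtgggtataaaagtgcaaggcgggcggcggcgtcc
CRELD2, chr22:49918384-49918633, plus strand: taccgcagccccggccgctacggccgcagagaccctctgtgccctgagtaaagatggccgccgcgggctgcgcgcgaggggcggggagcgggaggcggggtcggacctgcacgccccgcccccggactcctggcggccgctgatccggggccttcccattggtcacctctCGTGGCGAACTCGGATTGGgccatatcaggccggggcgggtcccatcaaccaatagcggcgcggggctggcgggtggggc

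Of 27 tested targets of ATF4 (28 listed), the factor of the amino acid response, 13 fell (48.1%) and 2 rose (7.41%), with a median log2 fold change of -0.16. WARS1, the tryptophan tRNA synthetase, which also responds to interferon, was at 230.1, 234 and 213 RPKM in untreated and 157, 141 and 148 RPKM in treated libraries (log2 fold change -0.60, limma adjusted p = 0.000211). SLC7A11, the cystine transporter, was at 6.69, 6.47 and 6.4 RPKM untreated and 4.29, 3.48 and 3.62 RPKM treated (log2 fold change -0.71, limma adjusted p = 0.00158). ATF4 was at 251, 254 and 265 RPKM untreated and 215, 212 and 216 RPKM treated (log2 fold change -0.26, limma adjusted p = 0.00287). Each of the treated libraries was below the untreated ones. The serine enzyme PSPH and the amino acid transporter SLC38A2 fell, with log2 fold changes of -0.42 and -0.73, and SLC7A5 rose by 0.27. With libraries rescaled to an equal sum, 4 of the 27 fell, and 6 and 8 fell without replicate 2 and replicate 3 of the treated libraries. Heat shock genes showed 3 rises and 2 falls among 20 tested of 27 listed. These shares were close to those of all genes, 13.8% higher and 9.73% lower. The median of the list was -0.029 and was above 0 under equal-sum scaling. HSPA1B rose from 17.9, 15.2 and 16.9 to 24.6, 24.8 and 26.2 RPKM (log2 fold change 0.58, limma adjusted p = 0.000651), with reads that can also come from its near-identical copy HSPA1A.

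Of 24 glycolysis genes listed, 22 were tested, of which 10 rose (45.5%) and 2 fell (9.09%), with a median log2 fold change of 0.13. ALDOC, an aldolase, was at 12.8, 13.8 and 13.1 RPKM in untreated and 22.9, 19.9 and 19.7 RPKM in treated libraries (log2 fold change 0.63, limma adjusted p = 0.000594). LDHA and PKM, known MYC targets, rose by 0.20 and 0.16. TXNIP, which restrains glucose uptake, fell from 9.84, 9.75 and 11.2 to 5.07, 5.58 and 5.56 RPKM (log2 fold change -0.86, limma adjusted p = 0.000323). With the GC trend removed, 7 of the 22 rose, 4 did with eBayes without its trend, and 5 did without replicate 2 or 3 of the treated or replicate 1 of the untreated libraries. The 13 mRNAs of the mitochondrial genome were lower, 10 of them past the threshold (76.9%) and 0 higher, with a median log2 fold change of -0.36. MT-CO1, a subunit of cytochrome oxidase, was at 862, 874 and 785 RPKM untreated and 711, 621 and 656 RPKM treated (log2 fold change -0.34, limma adjusted p = 0.00631). All transcripts of the mitochondrial genome, not these 13 mRNAs alone, took from 0.258% to 0.273% of the sum in untreated and from 0.219% to 0.240% in treated libraries. The number of the 13 mRNAs that fell was between 3 and 12 under the alternatives, and 6 without replicate 2 of either group. Of 28 genes of chromatin and transcription cofactors, 2 rose (7.14%) and 0 fell, beside 13.8% and 9.73% of all genes. The risers were EZH2 (log2 fold change 0.22, limma adjusted p = 0.00892) and CDK9, the kinase of P-TEFb (log2 fold change 0.59, limma adjusted p = 0.00183). Of 18 nuclear and snoRNA host long noncoding RNAs, 5 fell and 0 rose, among them GAS5 (log2 fold change -0.23, limma adjusted p = 0.0179) and SNHG1 (log2 fold change -0.20, limma adjusted p = 0.0167), and 0 fell with eBayes without its trend. From 1 to 3 of these RNAs fell without treated replicates 1 or 3 or untreated replicates 1 or 2.

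**Figure D3:**
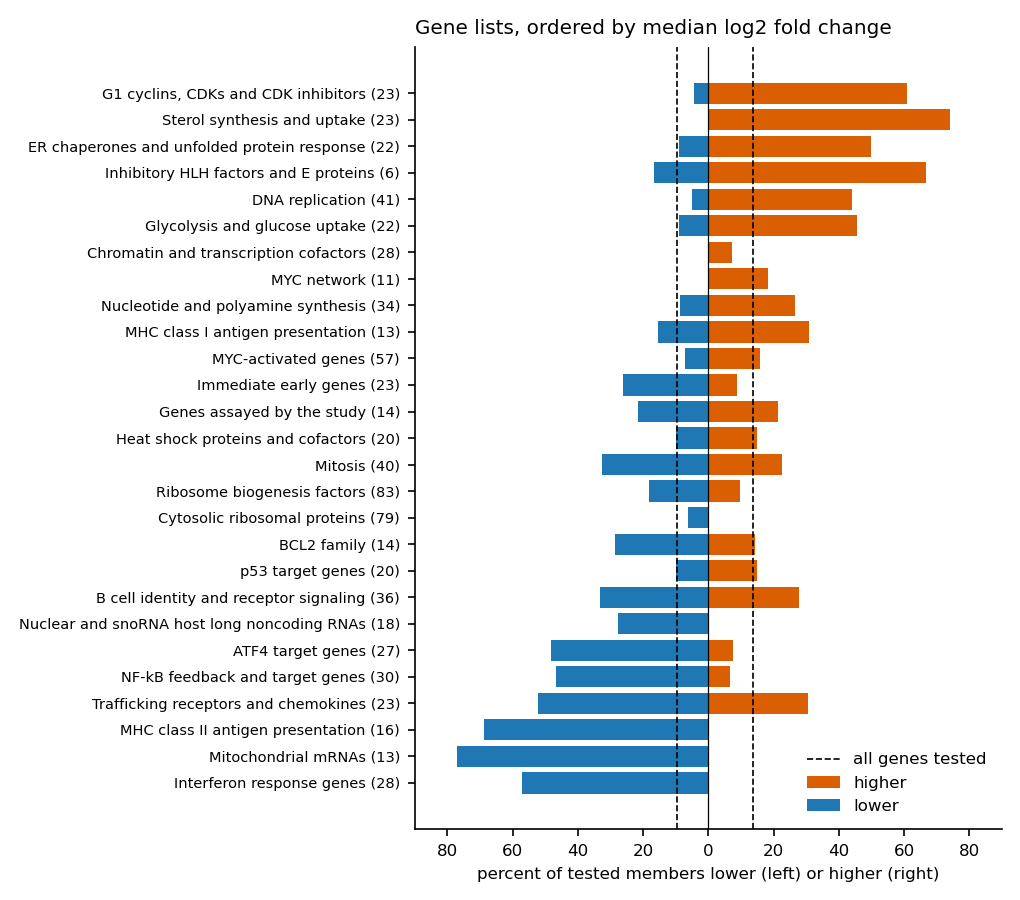
Percent of the tested members of each list that were lower (blue, left) or higher (orange, right) with 500 nM Omomyc at 6 h, with the number tested in parentheses, ordered by median log2 fold change. Dashed lines mark the 9.73% lower and 13.8% higher of all genes, and interferon, MHC class II and mitochondrial mRNAs extend to the left with 0 members higher, while sterol genes extend to the right with 0 lower.

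The direction of change went with GC content. The longest transcript of genes higher in treated cells had a median GC content of 56.4%, against 43.9% for genes that were lower and 47.2% for genes not past the threshold. Genes were divided into 5 bins of equal number by GC content. In the bin with the highest GC content, 31.9% were higher and 3.40% lower, with a median log2 fold change of 0.20. In the bin with the lowest, 5.43% were higher and 14.1% lower, with a median of -0.053. With a trend on GC content removed from each library, 2733 genes passed the threshold (1356 higher, 1377 lower), and 2233 of them were among the 3209. The part of GC content in the differences was not tested beyond this.

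**Figure D4:**
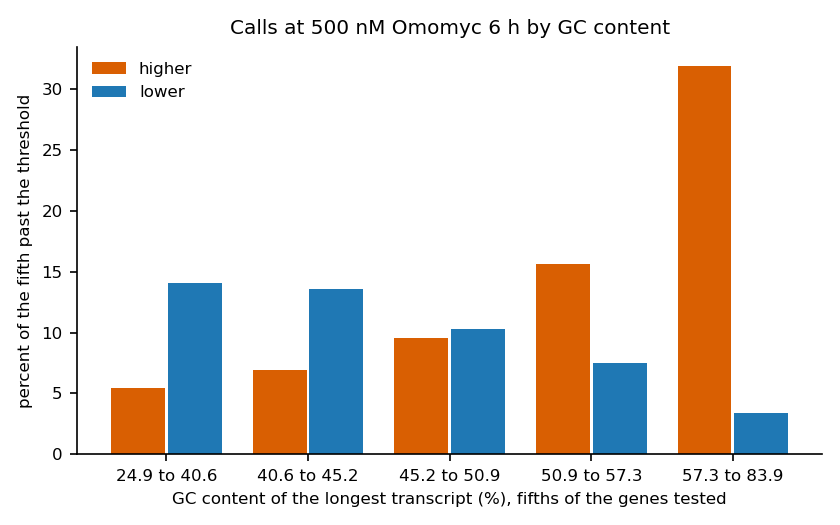
Percent of genes past the threshold (y axis) that were higher (orange) or lower (blue) with 500 nM Omomyc at 6 h, in 5 bins of the genes tested by GC content of the longest transcript (x axis). The share higher goes from 5.43% in the lowest bin to 31.9% in the highest, and the share lower from 14.1% to 3.40%.

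A direct comparison of both doses at 6 h found few genes that differed. Of 13511 genes tested between 2.5 μM and 500 nM Omomyc, 58 (0.429%) passed the threshold, with 25 (0.185%) higher and 33 (0.244%) lower at 2.5 μM, and 1373 had an unadjusted p under 0.05. The count depended on single libraries: it was 2, 8 and 0 without replicates 1, 2 and 3 of the 2.5 μM libraries, and 18, 0 and 4 without replicates 1, 2 and 3 of the 500 nM libraries. EGR2 was lower at the higher dose, at 5.29, 5.23 and 4.8 RPKM against 9.09, 8.05 and 8.42 RPKM at 500 nM (log2 difference -0.69, limma adjusted p = 0.0181). TNFRSF17, the plasma cell receptor BCMA, was higher, with 26.5, 27.2 and 28.4 RPKM at 2.5 μM and 19.3, 20.8 and 20.9 RPKM at 500 nM (log2 difference 0.42, limma adjusted p = 0.0244). PTPN6, the phosphatase SHP-1, was lower, at 19, 21.2 and 17.1 and 31.7, 29.8 and 28.9 RPKM (log2 difference -0.65, limma adjusted p = 0.0181). The libraries of both doses were apart for these 3 genes, which the rule for naming genes by dose required. INSIG1 was higher at 2.5 μM, at 123, 125 and 126 RPKM (log2 difference 0.32, limma adjusted p = 0.0268). For CCL3 the log2 difference of -0.69 was not past the threshold (limma adjusted p = 0.218), which does not show that the doses acted alike.

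Levels at 500 nM differed widely between 6 and 24 h. Of 13611 genes tested between these groups, 3462 (25.4%) passed the threshold, with 1622 (11.9%) higher and 1840 (13.5%) lower at 24 h, and 2256 passed it without replicate 2 of the 6 h libraries. FCRL5 was at 22.1, 16.8 and 16.6 RPKM at 24 h, against 1.11, 1 and 0.84 RPKM at 6 h (log2 difference 3.67, limma adjusted p = 1.53e-06). CCL3 was at 29.7, 18.3 and 19.1 RPKM at 24 h and 2.21, 1.35 and 2.33 RPKM at 6 h (log2 difference 3.21, limma adjusted p = 2.97e-05). SELPLG was at 1.43, 1.82 and 1.73 RPKM at 24 h and 4.75, 5.27 and 5.26 RPKM at 6 h (log2 difference -1.38, limma adjusted p = 6.89e-05). The first 2 were higher and the last lower in every 24 h library, a separation that the rule for naming genes by time required. The 6 h libraries enter both this comparison and the one that chose these genes, so the size of the difference is not independent of that choice.

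The comparisons of 2.5 μM at 6 h and of 500 nM at 24 h with untreated cells share the untreated libraries with the main comparison, and their values are given side by side. For the 15 largest falls the log2 fold change over untreated cells was from -3.32 to -1.59 at 500 nM and 6 h, from -3.75 to -1.58 at 2.5 μM and 6 h, and from -0.016 to 0.45 at 500 nM and 24 h. FCRL5 had values of -3.32, -3.64 and 0.35 in this order, EGR2 of -1.81, -2.50 and 0.19, and CCNB1 of -0.83, -0.76 and -0.0059. Among rises, INSIG1 had values of 0.90, 1.22 and 0.011, CALR of 0.69, 0.67 and 0.029, and PCNA of 0.48, 0.53 and -0.01. For the 15 largest rises other than SLC7A5P2 the values were from 0.96 to 1.74, from 0.79 to 1.46 and from -0.61 to 0.73. SLC7A5P2 was at 16.9, 8 and 10.5 RPKM at 500 nM and 24 h. List medians are given in the same order of comparisons. Interferon response genes had medians of -0.59, -0.45 and 0.066, MHC class II genes of -0.31, -0.46 and 0.096, G1 genes of 0.33, 0.34 and -0.023, sterol genes of 0.31, 0.47 and 0.023, and ER chaperone genes of 0.23, 0.22 and 0.016. The 13 mitochondrial mRNAs had medians of -0.36, -0.55 and -0.16. The fourth treated group, 2.5 μM in the libraries titled 24 h, lay between for some genes, with FCRL5 at 7.58, 6.51 and 6.38 RPKM and EGR2 at 14.7, 13.6 and 14.4 RPKM, and near the untreated level for others, with CALR at 245, 244 and 247 RPKM.

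**Figure D5:**
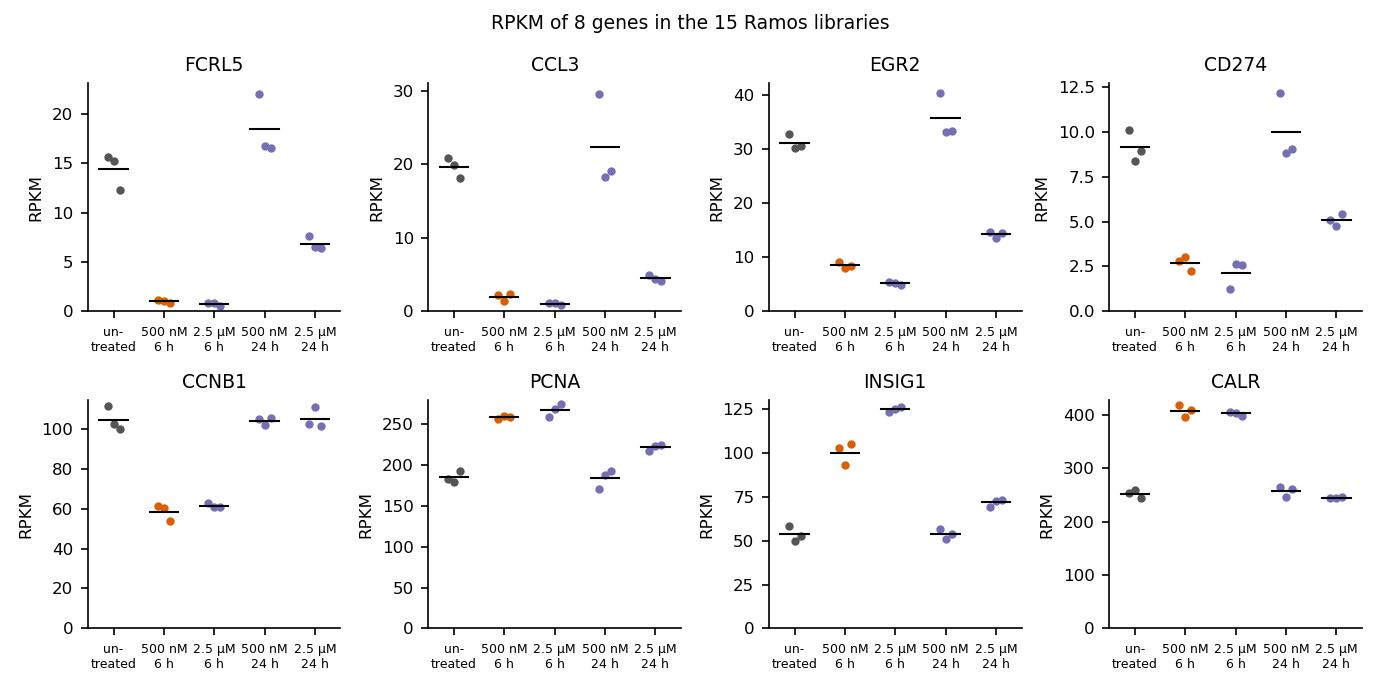
RPKM (y axis, from 0) of 8 genes in the 3 libraries of each Ramos group (x axis), with a bar at the mean: untreated (gray), 500 nM at 6 h (orange) and the other 3 Omomyc groups (purple). In all 8 genes both 6 h groups lie on the same side of the untreated libraries, and the 500 nM libraries at 24 h lie closer to the untreated libraries than to the 500 nM libraries at 6 h.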

How the data were processed

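Strand-specific RNA-Seq libraries of rRNA-depleted total RNA were analyzed from 3 untreated Ramos samples and 3 treated with 500 nM Omomyc for 6 h. The other Ramos groups entered the dose and time comparisons. The authors deposited RPKM values per gene in a table of the whole series, and the submitters' processing notes name RSEM. The aligner, the genome build and whether counting used strand are not given in the sources used here. Per-gene read numbers are not known, so no count model was used and the precision of low values could not be derived.

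Genes with a mean of at least 0.5 RPKM over the libraries compared were tested on log2(RPKM + 0.5) with limma 3.58.1 in R 4.3.3 (lmFit, then eBayes with trend), two-sided, with Benjamini-Hochberg adjustment over all genes tested and a threshold of 0.05. Scripts were first tested on simulated data. Positions came from GENCODE release 29 (57388 of 57992 genes matched), and promoter windows from RefSeq. Symbols came from a separate list of gene names and, where it had none, from release 29. Groups came from the sample titles.

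Named genes were the 15 largest rises and 15 largest falls past the threshold with no overlap between groups and a mean of at least 2 RPKM, small RNAs and clone names left out, up to 4 members per list with the largest change, all members of 3 lists (the MYC network, the HLH genes and the genes assayed by the study), and, under the same limits as the first, the 5 largest rises and falls by dose and by time. Other list members in the text were chosen after their values were seen. The comparison, its members and the gene lists were chosen with earlier results of these data known. Alternatives covered the pseudocount, filter, scaling, model, thresholds, replicate number and each library left out. Removal of GC and length trends, and the interferon, sterol and ER stress motifs, were chosen after seeing the data. Some genes that the rule names are not reported here.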

Additional observations from a re-analysis of the deposited data

Results flagged for a closer look

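The difference between 24 h and 6 h at 500 nM was past the limma threshold for 3462 genes, and that between 2.5 μM and 500 nM at 6 h for 58 genes, each by a direct test of the difference with Benjamini-Hochberg adjustment. The genes given here are the 5 largest rises and 5 largest falls among genes with a mean of at least 2 RPKM and no overlap, small RNAs and clone-named genes left out, and between doses larger differences past the threshold lie outside these limits. The absence of overlap is thus fixed by the choice.

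At 2.5 μM, BCL7A, ANP32B, TNFRSF17, IL10RA and VPREB3 were higher than at 500 nM, by log2 differences of 0.463, 0.435, 0.42, 0.39 and 0.38. BCL7A is a subunit of a chromatin remodeler and IL10RA a receptor chain for interleukin 10. Lower at 2.5 μM were SLC7A5P2 (-1.64), MTCP1 (-0.857), SEMA7A (-0.785), EGR2 (-0.685) and PTPN6 (-0.65). SLC7A5P2 can share reads with SLC7A5 and its value is uncertain.

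At 24 h, CCL1, FCRL5, CCL3, CCL4 and STAT5A were higher than at 6 h, by log2 differences of 3.72, 3.67, 3.21, 3.05 and 2.49, and each of these was among the 15 largest falls at 6 h. Lower at 24 h were CIBAR2 (-1.69), PPP1R2P4 (-1.65), SELPLG (-1.37), GTF2IRD2B (-1.3) and DERL3 (-1.24), the last a factor of ER-associated degradation. PPP1R2P4, a pseudogene, and GTF2IRD2B have copies of like sequence that can share their reads.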

How the results depend on the processing

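The 3209 genes past the threshold at 500 nM and 6 h became 2008 without a filter on low values, 1440 at an adjusted p under 0.01 and 111 at 1 or more on the log2 scale, and from 1853 to 3012 with 1 library left out. Median-ratio scaling gave 3185, quantile normalization 3152, removal of a GC trend 2733, removal of a length trend 3241, eBayes without trend 2387 and a fit over all 5 Ramos groups 4316. The 58 genes of the dose comparison became 0 without the filter, 0 at an adjusted p under 0.01, 0 with eBayes without trend, 91 with a mean of at least 2 RPKM, 33 with an equal sum, 3 at 1 or more on that scale, and from 0 to 18 with 1 library left out, where limma gave 1373 genes at an unadjusted p under 0.05 in the fit as reported. The 3462 genes of the time comparison became 2307 without the filter, 1731 at an adjusted p under 0.01, 117 at 1 or more on that scale, and from 2256 to 2944 with 1 library left out. Fewer genes or libraries enter some of these by construction, and otherwise the cause was not tested. With CACGCG counted beside the E box, 29.5% of windows of genes that rose and 24.4% of those that fell held a match. Of 133 named genes past the threshold, 97 were past it with the same sign under every alternative run and 132 kept their sign, the exception being BOP1, at -0.0469 with the GC trend removed.

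A replicate block gave 2910 genes for the main comparison, 2 for dose and 3216 for time. Deviations of same-numbered libraries correlated from -0.146 to -0.00287 in the main comparison, from -0.0316 to 0.014 for dose and from -0.0211 to 0.0442 for time. Those of differently numbered libraries correlated from -0.0675 to 0.103, from -0.035 to 0.0446 and from -0.0756 to 0.058. These ranges overlap, so no pairing by number was seen, and a shared culture or batch was not tested. Depth is unknown, which limits what can be said of genes near the filter.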
